A study of Mus musculus with 5 samples.

Results

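The cytosolic heat shock proteins described here are 8 genes of the mouse: Hspa1a, Hspa1b, Hspa8, Hsph1, Dnaja1, Dnajb1, Hsp90aa1 and Hspb1. They were chosen by name, as genes of the cytosolic chaperone system that the dissociation of a tissue into single cells can induce. They are 8 of the 25872 genes listed in any of the 3 deposited single-cell count tables. The aorta table and the control liver table list all 8. The table of the livers with ApoE in their label lists 7, and Hspa1a was not analysed there, so every summed liver value that involves that table holds 7 genes.

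Chaperones of the HSP70 family bind unfolded stretches of protein and release them in cycles driven by ATP. Their partners of the HSP40 (DnaJ) family bring them substrates and speed ATP hydrolysis, and HSP110 proteins exchange the nucleotide so that the substrate is let go. HSP90 acts later, on proteins that are nearly folded, and small heat shock proteins hold unfolded proteins until HSP70 takes them up. Heat, oxidative stress or cell isolation can release the transcription factor HSF1, which binds heat shock elements, arrays of the unit GAA and its complement, in front of the inducible members. In this set Hspa1a and Hspa1b encode the inducible HSP70, Hspa8 encodes the constitutive form (HSC70), Hsph1 encodes HSP110, Dnaja1 and Dnajb1 encode DnaJ partners, Hsp90aa1 encodes the inducible HSP90 and Hspb1 encodes the small heat shock protein HSP25.

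Promoters are shown for the HSP70 pair, because the counts of its members cannot be told apart with certainty, and for Hspb1, which with Hspa1b differed most between the tissues. The sequences are those of RefSeq on GRCm38.p6, the 140 bases before the start, written 5′ to 3′ on the strand of the gene. The stretches lie at chr17:34972157-34972296 on the minus strand (Hspa1a), chr17:34959239-34959378 on the minus strand (Hspa1b) and chr5:135887779-135887918 on the plus strand (Hspb1). Capitals mark matches to 2 adjoining heat shock units, GAANNTTC or TTCNNGAA, searched on both strands.
Hspa1a: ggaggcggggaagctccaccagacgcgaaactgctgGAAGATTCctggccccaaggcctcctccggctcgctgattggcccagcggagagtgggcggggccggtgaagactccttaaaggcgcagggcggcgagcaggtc
Hspa1b: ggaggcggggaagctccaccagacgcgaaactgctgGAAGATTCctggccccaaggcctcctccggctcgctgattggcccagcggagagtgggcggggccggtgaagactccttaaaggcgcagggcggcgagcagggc
Hspb1: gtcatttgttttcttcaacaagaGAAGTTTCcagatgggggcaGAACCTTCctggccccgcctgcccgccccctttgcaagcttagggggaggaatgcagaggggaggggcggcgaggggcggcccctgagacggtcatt

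The promoters of Hspa1a and Hspa1b were identical at 139 of these 140 positions and at 247 of the 250 positions before the start. Their longest open reading frames were 99.4% identical, with 11 differences in 1929 positions, whereas the last 500 bases of their longest transcripts were 46.8% identical once aligned. The sources used here do not give how reads that fit both genes were counted, so the split between them is uncertain and they are given singly and summed. Each of the pair held 1 match to the 2-unit element, from position -104 to -97, and Hspb1 held 2 matches, from -117 to -110 and from -97 to -90. The table holds 10 promoters for 6 of the members, and the 2-unit element was found in 6 of the 10: those of Hspa1a, Hspa1b and Hspb1, both of Hsph1 and 1 of the 3 of Dnaja1. It was in neither promoter of Dnajb1, and in 12.8% of all 32851 promoters in the same window of 250 bases before the start. The stricter 3-unit element, in which NN and a further unit in the alternating direction follow, was found in 0 of the 10 and in 0.466% of all promoters. These are matches of letters and say nothing of binding.

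The 8 genes lie on 6 chromosomes in the GENCODE annotation of GRCm38 (mm10): Hspa1a at chr17:34969190-34972156 and Hspa1b at chr17:34956436-34959238, both on the minus strand, Hspa8 at chr9:40800984-40810087 and Dnaja1 at chr4:40722150-40737149, both on the plus strand, Hsph1 at chr5:149614287-149636376 and Hsp90aa1 at chr12:110690605-110702728, both on the minus strand, and Dnajb1 at chr8:83608193-83612653 and Hspb1 at chr5:135887919-135889563, both on the plus strand.

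The study, whose title concerns epsins in the liver and the degradation of the LDL receptor in atherosclerosis, profiled mouse liver and aorta by droplet single-cell RNA sequencing (10x Genomics). There is 1 library in each of 5 groups: liver labelled DKO and ApoE, liver labelled WT and ApoE, liver labelled WT without ApoE, aorta labelled DKO and ApoE, and aorta labelled WT and ApoE. The labels speak of WT and Liver-DKO mice with n=3, describe an isolation for liver only, and give no age, sex, Cre driver, diet or treatment. They do not spell out which genes DKO removes, what ApoE changes, or how 3 mice map onto 1 library. With 1 library per group no difference between groups has a replicate check and no test was possible, so 95% intervals below (exact Poisson for a level, exact conditional binomial for a ratio) cover the counting of unique molecular identifiers (UMIs) alone. They do not cover variation between animals or preparations.

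The libraries held 616 to 4331 cells, with 1883798 to 10999072 UMIs in all and medians of 1552 to 2771.5 UMIs per cell, and any pair of libraries shared 0 to 7 cell barcodes. Mitochondrial transcripts made up 9.77% of the UMIs in the liver library labelled DKO and 7.52% in the liver labelled WT with ApoE. They made up 2.74% and 2.31% in the aortas labelled DKO and WT. The highest share in any deposited cell was 19.99% and 19.97% in these livers, but 4.991% and 4.998% in the aortas. The deposited cells thus reach different limits by tissue, and these shares are not compared between tissues. The transcript Gm42418, which overlaps the ribosomal RNA repeat and is often read as a sign of ribosomal or nuclear RNA, stood at 51771 CPM (counts scaled to 1000000 UMIs) in the liver library labelled DKO and 23842 in its WT counterpart, and at 60291 and 29679 in the aortas. The part of either transcript in the results below was not tested, beyond ratios recomputed with both left out of the total. The epsin genes were not lower under the DKO label: in hepatocytes Epn1 stood at 71.2 CPM in the library labelled DKO and 58.7 in the library labelled WT, and Epn2 at 8.62 and 7.64. Which stretch of these genes was counted is not given, so they do not check the label, and the groups are named here as their libraries are labelled.

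Across whole libraries, the members summed to 3399 and 3466 CPM in the aortas labelled DKO and WT, and to 1328, 1375 and 1278 CPM in the livers labelled DKO with ApoE, WT with ApoE and WT. This amounts to 0.340% and 0.347% of all UMIs in the aortas and 0.128% to 0.138% in the livers. Inducible HSP70 was near 0 in the livers and abundant in the aortas. Hspa1b was counted 24 times in the liver labelled DKO (2.18 CPM), 15 times in the liver labelled WT with ApoE (1.58 CPM) and 2 times in the liver labelled WT (1.06 CPM), against 98.3 CPM in the aorta labelled DKO and 146 CPM in the aorta labelled WT. Hspa1a was counted 1 time in the liver labelled WT, and stood at 185 CPM (95% interval 174 to 196) and 237 CPM (225 to 249) in the aortas labelled DKO and WT. In the liver table that lists it, the whole HSP70 pair had 3 UMIs in 616 cells, the count used here as the floor of detection.

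The small heat shock protein followed the same division. Hspb1 stood at 12.2, 15.2 and 31.9 CPM in the livers labelled DKO with ApoE, WT with ApoE and WT, and at 694 and 651 CPM in the aortas labelled DKO and WT. The remaining inducible members were higher in both aortas than in all 3 livers as well. Hsp90aa1 stood at 151, 142 and 169 CPM in the livers and 671 and 706 CPM in the aortas, in the same order of libraries. Dnajb1 stood at 16.7, 17.6 and 10.1 CPM in the livers and 71.6 and 90.7 CPM in the aortas. Hsph1 stood at 36.5, 33.5 and 17.0 CPM in the livers and 152 and 108 CPM in the aortas.

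The constitutive members were closest between tissues. Hspa8 stood at 717, 737 and 615 CPM in the livers and 1057 and 1040 CPM in the aortas, and Dnaja1, the partner of Hspa8 in protein import and folding, at 393, 429 and 433 CPM in the livers and 471 and 488 CPM in the aortas. For every member the lowest aorta library lay above the highest liver library, by a wide margin for Hspa1b and Hspb1 and a narrow one for Dnaja1.

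**Figure D1:**
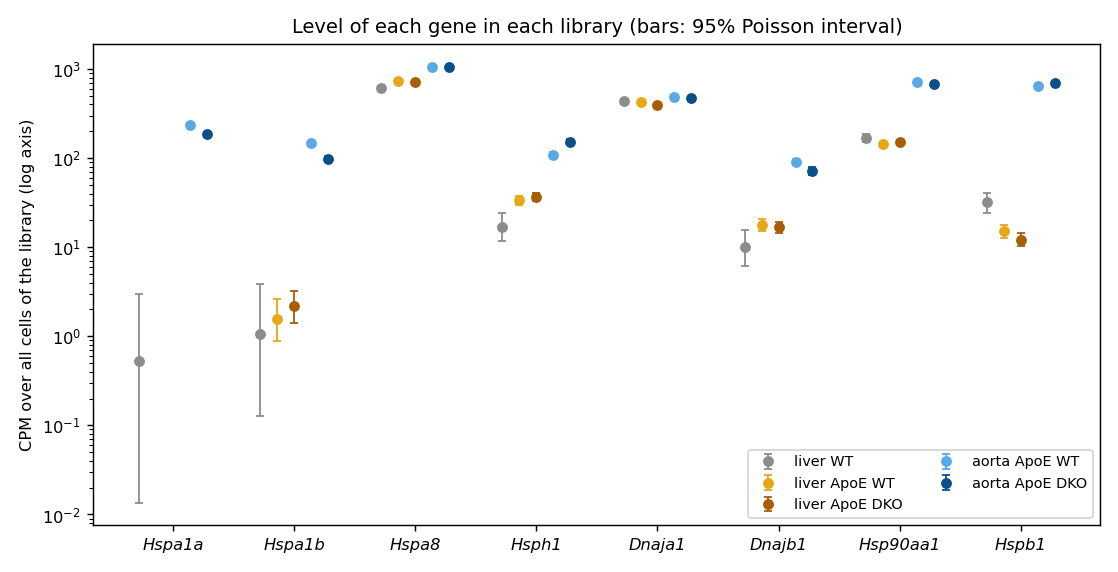
Level of each member in all cells of each of the 5 libraries, in CPM on a log axis, with exact 95% Poisson intervals that cover counting error only. Both aorta libraries lie above all 3 liver libraries for each gene measured, from Dnaja1 (471 and 488 against 393 to 433 CPM) to Hspb1 (694 and 651 against 12.2 to 31.9 CPM).

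The tissues hold different cells, so the ratio between them was also taken within lineages present in both, a comparison added after the levels had been seen. In all cells of the libraries labelled WT with ApoE, the aorta exceeded the liver 92.3-fold for Hspa1b, 42.9-fold for Hspb1, 5.16-fold for Dnajb1, 4.98-fold for Hsp90aa1, 3.22-fold for Hsph1, 1.41-fold for Hspa8 and 1.14-fold for Dnaja1. All 7 comparable members were higher and 5 passed 1.5-fold, where 49% of the 10082 genes with at least 100 UMIs over both libraries did so. In the libraries labelled DKO, 5 of 7 again passed, against 44% of 10492 genes.

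Within lineages Hspb1, Hspa1b, Hsp90aa1 and Hspa8 had an interval above 1 in all 9 pairs, Dnaja1 in 6, and Hsph1 and Dnajb1 in 4 each. Under the WT label, 47.8% of all genes had such an interval in T cells and 48.7% in endothelial cells. The share was 58.3% and 36.2% in macrophage clusters MP1 and MP2, and 57.8% in B cells. Under the DKO label it was 33.7%, 58.7%, 42.7% and 44.8% in the first 4. These shares cover genes with at least 100 UMIs over both libraries, which 2 to 4 members reached in each pair. Hspb1 in T cells was 300 CPM in aorta cluster TC1 and 4.33 CPM in the liver T cells of the libraries labelled WT with ApoE, 69.4-fold apart (12.1 to 2780), where the liver value rests on 1 UMI. In the libraries labelled DKO the T cells stood at 239 and 5.46 CPM, 43.8-fold apart (16.1 to 167). Endothelial cells, in which HSP25 is known to act on the actin cytoskeleton, held 1382 CPM of Hspb1 in the aorta labelled WT and 18.1 CPM in the liver labelled WT with ApoE, 76.5-fold apart (20.9 to 635), and 1367 and 16.6 CPM under the DKO label. Kupffer cells, the macrophages of the liver, had 0 Hspb1 UMIs in the library labelled WT with ApoE, against 142 in aortic macrophage cluster MP1, which is at least 32.2-fold higher when the liver is set at the floor of 3 counts. In each of the 9 lineage pairs Hspb1 was above the liver, and the liver count was never more than 4 UMIs.

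Hsp90aa1 was 1.92-fold to 6.89-fold higher in the aorta across the 9 pairs and Hspa8 1.49-fold to 3.05-fold. Dnaja1 stood between equal levels (378 CPM in both MP1 and Kupffer cells labelled DKO) and 2.07-fold higher. The upper ends of these 3 ranges are all of the B cell pair. In that pair 21 of the 52 liver cells were of cluster 17, led by antibody and plasma cell genes such as Igkc, Jchain and Mzb1. Aortic cluster BC1 was led by Igkc, Cd74 and Cd79a, so the pair compares partly different cells. For Hsph1 the interval included 1 in 5 pairs, among them T cells under both labels (1.62 and 1.20) and B cells (1.34). For Dnajb1 it included 1 in the T cells labelled WT (2.11) and in all 4 macrophage pairs (1.59 to 2.89). Hspa1b had 0 or 1 UMI in the liver cells of each pair, and its bounds where the liver had 0 were at least 5.39-fold in T cells, 6.06-fold in endothelial cells and 5.85-fold in B cells of the libraries labelled WT. Higher genes were common throughout: 45.1% of genes passed 1.5-fold in T cells, 45.7% in endothelial cells, 53.1% in MP1, 33.7% in MP2 and 52.8% in B cells under the WT label, and 30%, 53.4%, 34.1% and 40.4% in the first 4 under the DKO label.

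A list of 20 early response genes that cell isolation can induce, such as Fos, Jun, Egr1 and Zfp36, moved with these ratios. All 20 were higher in the aorta than in the liver in both genotypes, with a median log2 ratio of 4.42 under the WT label and 3.90 under the DKO label, against 0.55 and 0.37 for all genes. Their summed level was 12537 and 14508 CPM in the aortas labelled DKO and WT and 1391 to 1875 CPM in the livers. In T cells of the libraries labelled WT, all 14 with at least 100 UMIs over both libraries were higher. Their median log2 ratio was 4.02, beside 0.36 for all genes. In T cells labelled DKO, 11 of 12 were higher and 1 lower, with a median of 2.60 beside 0.008. A gene sparse in the liver cells passes this minimum mainly through the aortic cells, so the direction of such genes is partly set by the filter. The labels describe an isolation for the liver only, so tissue, isolation and library cannot be told apart. RNA from other cells was present in these lineages: Alb, a hepatocyte transcript, stood at 25191 CPM in liver T cells labelled WT and 12130 CPM in those labelled DKO, and Acta2, a smooth muscle transcript, at 2842 and 2762 CPM in TC1. Aortic smooth muscle cells are rich in Hspb1, and the part of such carry-over in the Hspb1 ratios was not tested.

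**Figure D2:**
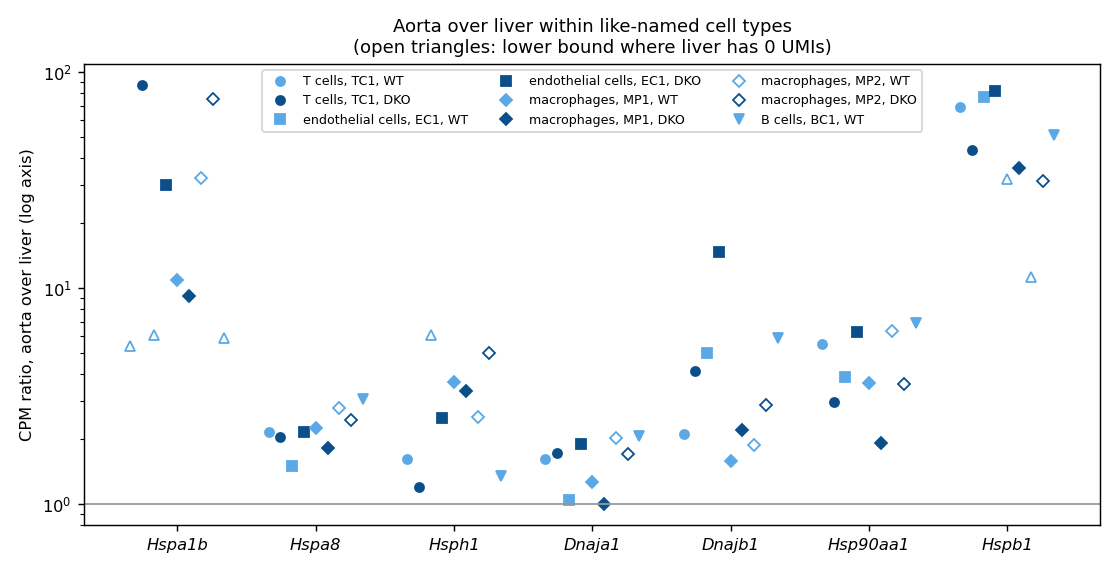
Aorta over liver ratio of each member within like-named cell types, on a log axis, for the libraries labelled WT and DKO with ApoE, drawn without intervals. Open upward triangles are lower bounds against a liver count of 0 set at 3 counts. Hspb1 lies at 31.3 or above wherever the liver had a UMI, and Dnaja1 between 1.001 and 2.07.

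Within the aorta, 15 of the authors' subtypes had at least 50 cells in the library labelled DKO and 16 in the library labelled WT. The subtype codes are kept here, since several go against their names: AP1 and AP2, called adipocytes, held 4 and 3 UMIs of Adipoq and 10563 and 3993 CPM of Dcn, a fibroblast transcript. HS1 and HS2, called haematopoietic stem cells, had 3 and 5 UMIs of Ptprc and 1263 and 2562 CPM of Col1a1, and HS3 was led by the cartilage gene Col2a1 (3553 CPM). VS1 and VS2 were led by Acta2, Myh11 and Rgs5. VS3 was led by Gm42418, with a median of 593 UMIs per cell and no smooth muscle marker among its leading genes.

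Hspa1a was highest in a macrophage cluster, through few cells. MP2, led by the chemokines Ccl3, Ccl4 and Cxcl2, by Tnf and by the complement genes C1qa to C1qc, held Hspa1a at 856 CPM in the library labelled DKO and 732 CPM in the library labelled WT. The median over subtypes was 196 and 209 CPM. MP1, the other C1q macrophage cluster, stood at 158 and 185 CPM, below that median in both. In MP2 a single cell carried much of this level, with 66 of 124 Hspa1a UMIs under the DKO label and 49 of 69 under the WT label. Without that cell MP2 stood at 421 CPM (320 to 544) under the DKO label and at 224 CPM (137 to 346) under the WT label, where VS1 stood at 369 CPM. Endothelial cluster EC1 held 411 and 391 CPM, but under the DKO label 1 cell held 28 of its 67 UMIs, and without it EC1 stood at 250 CPM (177 to 341), near VS1 at 224 CPM. Hspa1b was highest in MP2 under the DKO label, at 359 CPM, and in HS2 under the WT label, at 266 CPM, where MP2 held 244 CPM with 19 of 23 UMIs in 1 cell. The erythroid cluster ET2, in which Hbb-bs alone made up 430068 and 501108 CPM, was lowest for each of the 8 genes in both libraries.

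Hspb1 had another order. It was highest in VS1, at 1488 and 1448 CPM in the libraries labelled DKO and WT, then in EC1 at 1367 and 1382 CPM and in VS2 at 1189 and 1160 CPM. The intervals of VS1 and EC1 overlap in both libraries, so their order is not read. TC1 held 239 and 300 CPM, and MP2, highest for Hspa1a, held 449 and 254 CPM. Dnaja1 was highest in TC1 at 645 CPM (542 to 761) and 638 CPM (541 to 746). MP2 held 642 and 551 CPM of it, within these intervals, so no order is read. Hspa8 and Hsp90aa1 were highest in MP2, at 1727 and 1686 CPM and at 1105 and 1145 CPM. These levels rest partly on few cells. Under the WT label 10 of the 55 MP2 cells held 65.4% of the Hspa8 UMIs, and 1 cell held 24 of the 108 Hsp90aa1 UMIs.

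**Figure D3:**
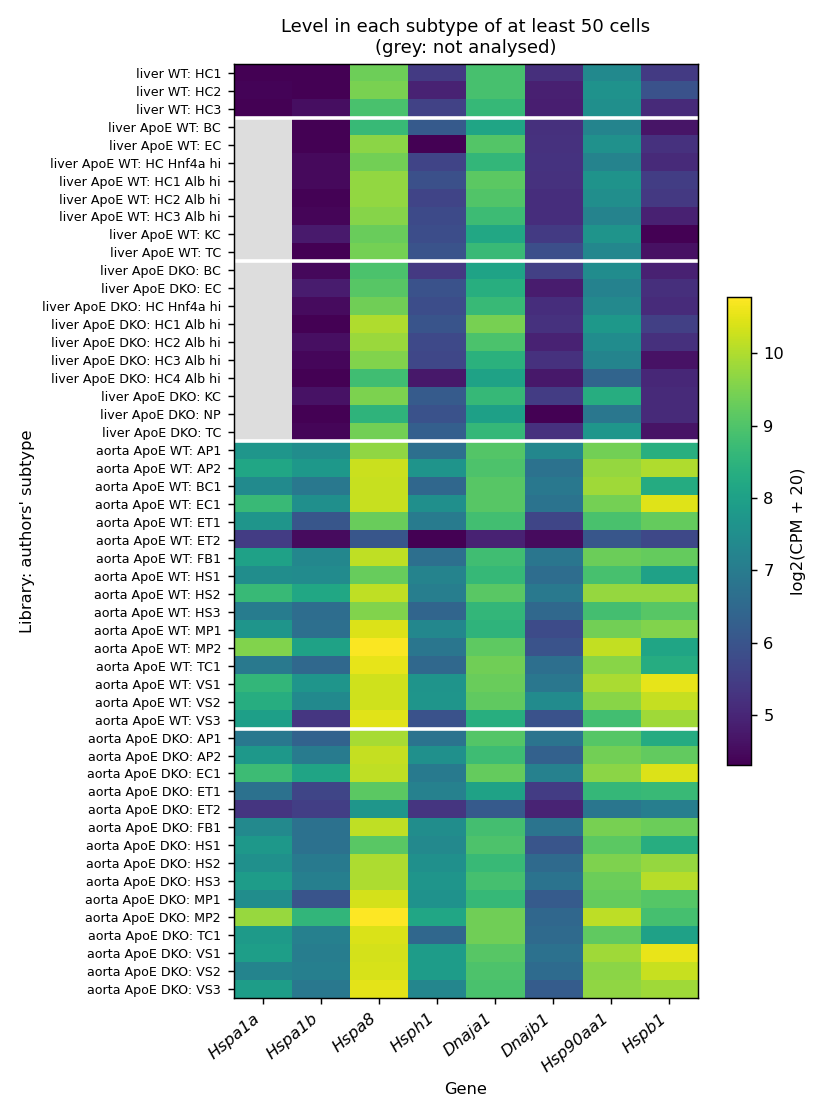
Level of each member in each subtype with at least 50 cells, as log2(CPM + 20), with subtypes in rows grouped by library and genes in columns. Colours are to be read within a column. Yellow marks high levels and dark blue low ones. Most aorta subtypes are brighter than the liver subtypes for Hspa1b and Hspb1. ET2, the darkest aorta subtype in each column, is an exception: under the WT label it lies at 2.71 CPM for Hspa1b and 32.5 CPM for Hspb1, within the range of the liver subtypes.

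Hspa1a was counted in 705 of 2800 cells of the aorta labelled DKO and 828 of 2800 of the aorta labelled WT. It was partly held by few cells: 7 and 10 cells with at least 10 UMIs carried 14.8% and 12.5% of its UMIs. Of the 7, 3 were in MP2. Of the 10, 4 were in T cell cluster TC2, and the others were spread singly over MP2, FB1, HS2, AP2, VS1 and the Schwann cell cluster SC1. In the livers no cell held more than 2 Hspa1b UMIs.

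The first comparison of genotypes asks how the members differed in aortic smooth muscle between the libraries labelled DKO and WT, in 1034 and 636 cells of VS1, VS2 and VS3. Inducible HSP70 was lower under the DKO label and the other members differed less. Hspa1a stood at 202 CPM in the library labelled DKO and 351 CPM in the library labelled WT, a ratio of 0.574 (0.494 to 0.668). Hspa1b stood at 112 and 172 CPM, a ratio of 0.653 (0.529 to 0.807), and the summed pair at 314 and 523 CPM, a ratio of 0.600 (0.531 to 0.678). These 2 of 8 members were past 1.5-fold lower, where 5.98% of the 4331 genes with at least 100 UMIs were, and 0 were past 1.5-fold higher, where 3.16% were.

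Of the DnaJ partners, Dnajb1, which works with HSP70 and is induced along with it, stood at 78.3 and 105 CPM, a ratio of 0.745 (0.573 to 0.969). Dnaja1 stood at 508 and 585 CPM, a ratio of 0.869 (0.782 to 0.966). For 4 members the whole interval lay below 1 (Hspa1a, Hspa1b, Dnajb1 and Dnaja1), where 18.3% of genes were so placed, and for 0 above, where 8.13% were. Hsph1 leaned the other way, at 205 and 177 CPM, a ratio of 1.16 (0.966 to 1.39) that includes 1.

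The intervals of the abundant members included 1. Hspa8 stood at 1318 and 1260 CPM, a ratio of 1.05 (0.976 to 1.12), Hsp90aa1 at 862 and 913 CPM, a ratio of 0.944 (0.869 to 1.03), and Hspb1 at 1331 and 1374 CPM, a ratio of 0.969 (0.906 to 1.04). The sum of all 8 was 4617 and 4937 CPM, a ratio of 0.935 (0.903 to 0.969). The members' median log2 ratio was -0.14, beside -0.08 for all genes.

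The cluster VS3 held 351 cells in the library labelled DKO and 72 in its WT counterpart, with Gm42418 at 178227 and 99762 CPM in it. Without VS3, in an alternative added after the data were seen, Hspa1a had a ratio of 0.556 (0.474 to 0.653), the pair 0.584 (0.514 to 0.664) and Dnajb1 0.764 (0.583 to 1.002), which then includes 1. When the subtypes were weighted equally, the ratio of Hspa1b turned to 1.33, with 24 UMIs against 1 in VS3. Over all cells of the aortas the ratio of Hspa1a was 0.779 (0.721 to 0.842) and that of Hsph1 was 1.41 (1.28 to 1.56).

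The early response list moved in the direction of HSP70. Of its 20 genes 18 were lower under the DKO label and 2 were past 1.5-fold lower, Socs3 at 0.572 and Ier3 at 0.666, with Fos at 0.723 and Junb at 0.727. Its median log2 ratio was -0.16, beside -0.08 for all genes, and its summed level was 14119 and 16884 CPM. The part of cell isolation in the lower HSP70 was not tested. Gm42418 stood at 88398 and 41688 CPM in the class, and its part was not tested either.

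**Figure D4:**
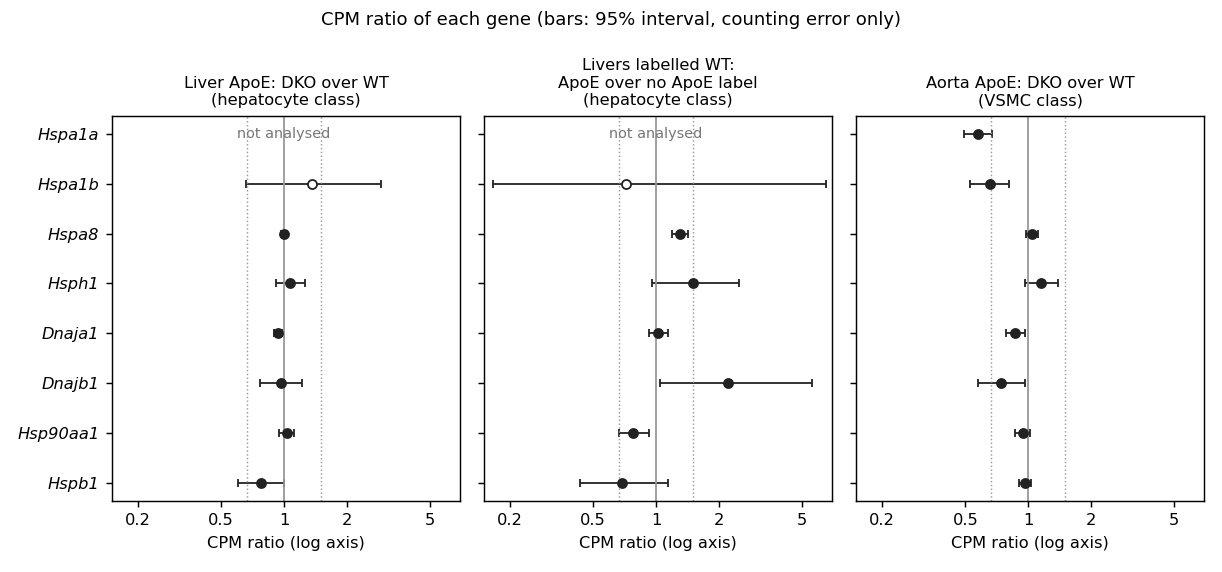
Ratio of each member between libraries in the main cell class of each comparison, on a log axis, with exact 95% intervals. Dotted lines mark 1.5-fold and open circles mark members with under 100 UMIs. In aortic smooth muscle Hspa1a and Hspa1b lie at 0.574 and 0.653, whereas all 6 counted members lie between 0.779 and 1.07 in hepatocytes labelled DKO over WT.

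Across the 15 aorta subtypes with at least 50 cells in both libraries, the HSP70 pair was lower under the DKO label in 9 and higher in 6. Its interval lay below 1 in 7 of them: HS2 (0.419), AP1 (0.461), ET1 (0.503), VS2 (0.554), VS1 (0.608), FB1 (0.609) and AP2 (0.666). These include smooth muscle, the Col10a1 and Spp1 cluster FB1, the Dcn-rich clusters AP1 and AP2 and erythroid cells. The share of all genes with an interval below 1 was, in the same order, 15.2%, 16.1%, 60.2%, 14.6%, 15.7%, 21% and 17.3%. The interval lay above 1 in 2, TC1 at 1.89 (1.27 to 2.84) and HS3 at 1.76 (1.32 to 2.34), where 18.2% and 16.6% of genes did so.

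Single cells decided some of these. In TC1 the cell with most UMIs of the pair held 44 of the 71 under the DKO label, and without the top cell of each library, an alternative added after the data were seen, the ratio became 0.931 (0.538 to 1.60). AP2 then stood at 0.772 (0.592 to 1.003), and EC1 went from 1.19 (0.898 to 1.58) to 0.787 (0.563 to 1.09). In MP2, where the top cells held 89 and 68 UMIs of the pair, the ratio went from 1.25 (0.963 to 1.62) to 2.35 (1.48 to 3.86). The interval then lay below 1 in 6 subtypes and above in 2, HS3 and MP2.

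Once each cell was thinned to 1000 UMIs, the share of cells with an Hspa1a UMI was lower under the DKO label in 9 of the 15 subtypes and higher in 6 (AP2, HS1, HS3, MP1, MP2 and VS3). Thinning left 23 and 5 cells labelled DKO and WT in VS3, so its direction is not read. It also left under 50 cells in a library of VS2 (188 and 46), EC1 (48 and 72), MP1 (39 and 55) and MP2 (45 and 27). In AP2, where the level of the pair was lower, the share was 18.9% and 17.1%, and in HS3 19.8% and 6.44%. In VS1 the share was 20.9% and 27.8% in the libraries labelled DKO and WT (41.5% and 50.6% before thinning), with 3 and 36 cells too shallow. In HS2 it was 17.5% and 27.7% (36.1% and 49.5% before thinning), with 6 and 20 cells too shallow, and in FB1 12.3% and 18.6% (22.2% and 28.9%), with 50 and 106 too shallow. The 2 erythroid clusters differed, with 2.08% and 3.03% in ET2 but 6.67% and 22% in ET1, so no background level is read from them. Median depth before thinning was 2365 and 2119 UMIs in VS1 and 3598 and 5669 in ET2.

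Hsph1 showed the opposite tilt to the HSP70 pair. Its ratio was above 1 in 12 of the 15 subtypes, with the interval above 1 in 5 and below 1 in 0. In FB1 it stood at 159 and 81.9 CPM, a ratio of 1.94 (1.37 to 2.76), in HS3 at 187 and 66.6 CPM, 2.81 (1.83 to 4.31), in HS2 at 170 and 114 CPM, 1.49 (1.04 to 2.13), and in MP2 at 262 and 95.4 CPM, 2.75 (1.31 to 6.47), the last with 38 and 9 UMIs. ET2 had 7 UMIs against 0. Without the top cell of each library the interval lay above 1 in 6 subtypes and below in 0. In HS2 and FB1 the genes therefore stood on opposite sides, with Hsph1 higher and the HSP70 pair lower under the DKO label. Between 14.2% and 26.5% of genes had an interval above 1 in FB1, HS2, HS3 and MP2 (14.2%, 16%, 16.6% and 26.5%), and 55.6% in ET2.

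**Figure D5:**
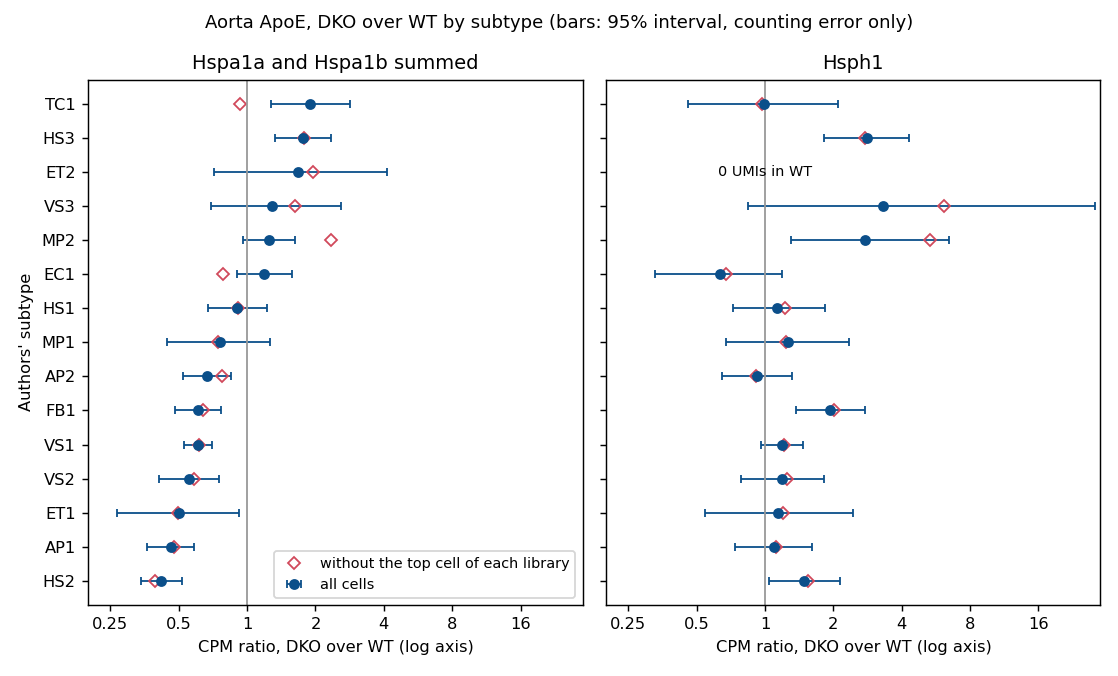
Ratio of the HSP70 pair (Hspa1a and Hspa1b summed) and of Hsph1 between the aortas labelled DKO and WT in each subtype, on a log axis, with exact 95% intervals. Red diamonds give the ratio without the cell of each library that holds most UMIs. The pair lies below 1 in 9 of 15 subtypes and Hsph1 above 1 in 12.

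For Hspa8, Dnaja1, Hsp90aa1 and Hspb1 the median ratio over subtypes lay between 0.965 and 1.04. The ratio of Hspa8 had a median over subtypes of 1.01, with the interval above 1 in 3 (AP1 1.17, HS3 1.37 and ET2 4.12) and below 1 in 0. In these 3 subtypes 12.5%, 16.6% and 55.6% of all genes had an interval above 1. Dnaja1 had a median of 1.04, with the interval above 1 in ET2 alone (4.71) and below 1 in 3. Among these was ET1 at 0.567, where 60.2% of all genes had an interval below 1. Hsp90aa1 had a median of 0.965, with the interval above 1 in 3 and below in 4. Among the latter were AP1 at 0.782 and TC1 at 0.740, where 16.1% and 18.9% of genes had an interval below 1. Hspb1 ranged from 0.583 (0.491 to 0.691) in AP2 to 3.57 in ET2, with HS3 at 2.04 (1.73 to 2.39), from 1070 and 526 CPM. HS3 was higher under the DKO label for all 8 members, with the interval above 1 for Hspa1a, Hspa8, Hsph1, Hsp90aa1 and Hspb1. Of all genes in HS3, 16.6% had an interval above 1 and 17.2% below. HS3 held 96 cells labelled DKO and 257 labelled WT.

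The second comparison asks the same of hepatocytes, in 3213 cells labelled DKO and 4015 labelled WT, both with ApoE. No member was past 1.5-fold. Hspa8 stood at 746 and 748 CPM, a ratio of 0.997 (0.964 to 1.03), and Hsp90aa1 at 146 and 142 CPM, a ratio of 1.03 (0.952 to 1.11). Dnaja1 was the one member whose interval lay wholly below 1, at 408 and 435 CPM, a ratio of 0.938 (0.896 to 0.981). Of the 6 members with at least 100 UMIs, 0 passed 1.5-fold in either direction, where 2.28% of 8282 genes were higher and 2.69% lower, and 1 had its interval below 1, where 18.4% did, and 0 above, where 15.9% did.

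The inducible members were sparse in hepatocytes. Hsph1 stood at 35.7 and 33.3 CPM, a ratio of 1.07 (0.913 to 1.26), and Dnajb1 at 16.5 and 17.1 CPM, a ratio of 0.964 (0.764 to 1.22). Hspb1 stood at 12.4 and 15.96 CPM, a ratio of 0.779 (0.603 to 1.01), and Hspa1b had 20 and 14 UMIs, a ratio of 1.37 (0.657 to 2.93). The 7 genes summed to 1366 and 1392 CPM, a ratio of 0.981 (0.957 to 1.01), and this ratio lay on either side of 1 by the choice of cells and denominator, between 0.944 and 1.06. With only cells of at least 500 genes and under 10% mitochondrial UMIs, Dnaja1 turned to 1.01.

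Hepatocyte subtypes pool clusters that the libraries fill unequally, so a ratio within a subtype compares partly different cells. HC1 Alb hi held 920 cells labelled DKO and 895 labelled WT, of which cluster 2 made up 86% and 53.5%, cluster 6 made up 9.67% and 45.8%, and cluster 16, led by pancreatic acinar genes and kept out of the hepatocyte class, 40 and 6 cells. In HC3 Alb hi, cluster 7 made up 56.1% under the DKO label and 17% under the WT label, and cluster 3 made up 17.7% and 52.6%. Its median depth was 4273 and 1824.5 UMIs per cell.

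Dnaja1 was highest in HC1 Alb hi, at 680 CPM (631 to 732) labelled DKO and 549 CPM (509 to 590) labelled WT. The next subtype, HC2 Alb hi, held 474 and 499.7 CPM, and its interval under the WT label (467 to 534) overlaps that of HC1 Alb hi. Hspa8 stood at 1002 and 832 CPM in HC1 Alb hi and 877 and 828 CPM in HC2 Alb hi, so that no order is read under the WT label. Hspb1 stood at 26.6 and 24.9 CPM in HC1 Alb hi and 17.3 and 22.2 CPM in HC2 Alb hi, with intervals that overlap in both libraries.

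The ratio of Hspa8 between the labels was 1.20 (1.11 to 1.31) in HC1 Alb hi, where 11% of 2821 genes had an interval above 1. Within its clusters, an alternative added after the data were seen, it was 1.21 (1.09 to 1.34) in cluster 2 and 1.31 (1.06 to 1.61) in cluster 6. Dnaja1 had 1.24 (1.12 to 1.38) in HC1 Alb hi, but 1.13 and 1.21 in these clusters, with intervals that include 1. Gm42418 stood at 161390 and 39860 CPM in this subtype, and its part was not tested. In HC3 Alb hi the ratio of Dnaja1 was 0.801 (0.739 to 0.868), from 326 and 407 CPM, where 21.3% of genes had an interval below 1. Within its clusters it was 0.817 (0.660 to 1.004) in cluster 3, 0.825 (0.711 to 0.957) in cluster 4 and 1.02 (0.891 to 1.16) in cluster 7. Hspb1 had 0.482 (0.2504 to 0.899) in HC3 Alb hi, from 17 and 31 UMIs, and none of the 3 clusters had an interval clear of 1. In HC Hnf4a hi, Hspa8 had a ratio of 0.995 that joined 1.17 (1.07 to 1.28) in cluster 5 and 0.847 (0.774 to 0.926) in cluster 8.

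Among the other liver cells, endothelial cells held less of both constitutive members under the DKO label, Hspa8 with 63 and 87 UMIs, a ratio of 0.666 (0.474 to 0.932), and Dnaja1 with 37 and 56 UMIs, a ratio of 0.608 (0.390 to 0.937). Lower genes were common in these cells, with 43.9% of 310 genes below 1 by their interval. Kupffer cells held 306 CPM (236 to 391) of Hsp90aa1 labelled DKO, above the other subtypes of at least 50 cells in that library, and 182 CPM (116 to 270) labelled WT, where HC1 Alb hi held 178 CPM and no order is read. This gave a ratio of 1.69 (1.04 to 2.82) from 64 and 24 UMIs, where 22.1% of 426 genes had an interval above 1. In T cells Hspa8, Dnaja1 and Hsp90aa1 had intervals that include 1.

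The third comparison sets hepatocytes labelled WT with ApoE (4015 cells) over hepatocytes labelled WT (261 cells). The authors typed all 616 cells of the liver labelled WT as hepatocytes. The class leaves out its cluster 0 (244 cells), whose leading genes were Spp1 and Tmsb4x, and its haemoglobin-led cluster 2 (111 cells). Apoe itself stood at 36.3 and 68.8 CPM in the 4015 and 261 cells. This is low for a transcript that hepatocytes are known to hold in abundance, so its level does not check either label. The comparison shares the first of these libraries with the hepatocyte comparison above, and its libraries come from separately deposited tables of raw counts. Hspa8 stood at 748 CPM with ApoE and 576 CPM without, a ratio of 1.30 (1.19 to 1.42). Hsp90aa1 went the other way, at 142 and 182 CPM, a ratio of 0.778 (0.661 to 0.922). Dnajb1 stood at 17.1 and 7.77 CPM, a ratio of 2.20 (1.04 to 5.57) that rests on 150 and 7 UMIs. It was the 1 of 6 members past 1.5-fold higher, where 14.9% of 6875 genes were, and 0 were past 1.5-fold lower, where 16.8% were.

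Hsph1 stood at 33.3 and 22.2 CPM, a ratio of 1.499 (0.953 to 2.49), just inside the limit, and over all cells of the libraries at 1.97 (1.37 to 2.93). Dnaja1 stood at 435 and 425 CPM, a ratio of 1.02 (0.920 to 1.14). Hspb1 stood at 15.96 and 23.3 CPM, a ratio of 0.685 (0.431 to 1.14) from 140 and 21 UMIs, and over all cells of the libraries at 15.2 and 31.9 CPM, a ratio of 0.476 (0.3499 to 0.655). The 7 genes summed to 1392 and 1239 CPM, a ratio of 1.12 (1.06 to 1.20). With all hepatocytes of the authors' type, Hsph1 had a ratio of 1.96 (1.36 to 2.91) and Hspb1 0.499 (0.366 to 0.687), both then clear of 1. Hspa8, Hsp90aa1 and Dnajb1 kept their sides, at 1.22, 0.839 and 1.69. Early response genes were lower with ApoE, 12 of the 14 counted, 9 of them past 1.5-fold, among them Klf6 at 0.0921 and Junb at 0.351. The label with ApoE, the library and the preparation cannot be told apart.

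Other chaperone genes were read from lists of each compartment. In hepatocytes labelled DKO over WT, 9 relatives of HSP70, HSP40 and HSP110 in the cytosol had at least 100 UMIs, with 4 higher, 5 lower and 0 past 1.5-fold. Of 10 HSP90 genes and co-chaperones 5 were higher and 5 lower. Hsp90ab1, the constitutive HSP90, had a ratio of 1.25 (1.20 to 1.29) beside 1.03 for Hsp90aa1, and Ahsa1, which stimulates the HSP90 ATPase, had 0.712 (0.610 to 0.830). The 8 subunits of the chaperonin CCT, which folds actin and tubulin, were all lower, with 0 past 1.5-fold, a median log2 ratio of -0.15 and Cct8 at 0.707.

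Chaperones outside the cytosol were read in the same hepatocytes, and no difference between lists was tested. Of the 14 endoplasmic reticulum chaperones 10 were higher under the DKO label, with Pdia4, a disulfide isomerase, at 1.76 (1.59 to 1.96) and Hyou1, the HSP110 of that compartment, at 1.52 (1.29 to 1.78), and Manf lower at 0.783. Their median log2 ratio was 0.17, beside 0.00 for all genes and -0.03 for the cytosolic members. Of 8 mitochondrial chaperones 6 were lower, with a median log2 ratio of -0.13. The early response list was mixed, with 9 higher and 6 lower, Zfp36 at 1.44 and Btg2 at 1.41.

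In hepatocytes labelled WT with ApoE over WT, the immunophilin Fkbp5, an HSP90 co-chaperone and a target of the glucocorticoid receptor, had a ratio of 9.53 (6.15 to 15.6), from 1856 and 20 UMIs. Hsp90ab1 had 0.778 (0.721 to 0.841), the value that Hsp90aa1 also showed. Hspa14 and Hspa4l were lower, at 0.423 and 0.532, and Tcp1 and Cct5 of the chaperonin were higher, at 1.65 and 1.62.

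In aortic smooth muscle, 5 other small heat shock genes were counted, 3 higher and 2 lower under the DKO label, and 4 had an interval that includes 1, as Hspb1 did. The exception, Hspb7, known from muscle, had a ratio of 2.27 (1.60 to 3.28), from 145 and 42 UMIs. The 7 relatives of HSP70 and its partners had 0 past 1.5-fold and 0 intervals clear of 1, unlike Hspa1a and Hspa1b. Chordc1, an HSP90 co-chaperone, was past 1.5-fold higher at 1.71 (1.15 to 2.60). Of 6 mitochondrial chaperones 5 were lower, with a median log2 ratio of -0.32, and the endoplasmic reticulum list was split 6 and 6, with Pdia3 at 0.760, Hspa5 at 0.858 and Calr at 1.27.

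The members varied together to unlike degrees. Over the 31 combinations of library and aorta subtype with at least 50 cells, the correlation of log2(CPM + 20) was 0.95 between Dnaja1 and Hsp90aa1, 0.93 between Hspa8 and Hsp90aa1, 0.83 between Hspa1a and Hspa1b, and lowest, 0.49, between Hspa1b and Hspb1. Over 18 liver combinations of the libraries with ApoE it was 0.92 between Hspa8 and Dnaja1 but 0.02 between Hspa8 and Hsph1, whose counts there are sparse. These are descriptions over subtypes that share libraries and depth. The aorta combinations, here and in the likeness below, include the haemoglobin-rich ET2 of both libraries. Its members summed to 529 and 165 CPM under the DKO and WT labels, where the median subtype held 3357 and 3437 CPM. The part of ET2 in the aorta correlations was not tested, so the tissues are not compared by them.

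Among the 5 genes whose pattern over the 31 aorta combinations was most like the mean of the members were Dusp1 (0.95), Gadd45b (0.93), Lmna (0.93) and mt-Co1 (0.93), out of 4219 ranked. For the HSP70 pair the 5 included Dctn4 (0.86), Atf3 (0.84), Klf6 (0.84) and Clic4 (0.84). Over 52 combinations of all libraries Lmna, Brd2, Map7d1 and Nfkbia were among the first 5 of 7511 genes, at 0.94 to 0.93. In the liver alone the first 5 were Commd6, Eif4a1, Thoc7, Cdc37 and Edf1, at 0.88 to 0.86 over 18 combinations and 4774 genes.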

How the data were processed

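The deposited tables hold raw UMI counts per gene and cell, made by the authors with Cell Ranger 7.1.0 on mm10, per the submitters' processing notes. How cells were filtered, typed and checked for doublets is not stated, no doublet caller was run, and the authors' cell types were used as deposited, while 24 other metadata columns were not used. Each library and cell group was read by summing UMIs over cells and scaling to a total of 1000000 (CPM), with exact 95% intervals that cover counting error only. A gene counted in a comparison had at least 100 UMIs over both libraries, and a difference was called past 1.5-fold. The hepatocyte class leaves out clusters with more leading markers of another class than of its own. Subtypes were used with at least 50 cells, and cells were thinned to 1000 UMIs for shares of cells. Likeness between genes was Pearson's r of log2(CPM + 20) over subtypes, among genes with at least 500 UMIs. Some genes of the ranked lists are not reported here. Named genes are the members and, per list and comparison, up to 4 genes whose interval bound nearest to 1 lies farthest from it. The lists cover other chaperones and early response genes. The members and lists were chosen with earlier results of these data known. Promoters came from RefSeq. Python 3.11.15, numpy 2.4.6, scipy 1.17.1, pandas 2.3.3, matplotlib 3.10.9 and biopython 1.88 were used. The ratio interval and the 1.5-fold call were tested on simulated Poisson counts per gene, which hold counting error only. Alternatives covered the denominator, cell weights, cell filters, thinning, subtypes, cells with most UMIs and the UMI minimum.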

Additional observations from a re-analysis of the deposited data

Results flagged for a closer look

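The ratio between the libraries labelled DKO and WT lay above 1 in some subtypes and below 1 in others, by intervals clear of 1 on both sides, for 6 of the members. These differences between subtypes were not tested, and the share of all genes with such contrasts is not given here. In the livers with ApoE, Hspa8 stood at 1.20 in HC1 Alb hi and 0.666 in endothelial cells, and Dnaja1 at 1.24 and 0.608 in the same cells. Of all genes, 11% had an interval above 1 in HC1 Alb hi and 43.9% below 1 in endothelial cells. In the aortas, Hspa1a stood at 2.01 in TC1 and 0.432 in VS2, and without the top cell of each library TC1 stood at 1.03. The other 4 aortic contrasts have the haemoglobin-rich cluster ET2 at their upper end. Hspb1 there had a ratio of 3.57 against 0.583 in AP2, and Hsp90aa1 2.09 against 0.740 in TC1. Dnaja1 had 4.71 against 0.567 in the other erythroid cluster, ET1, where 60.2% of genes had an interval below 1. Hspa1b in ET2 had 9.41, from 9 UMIs and 1 UMI, against 0.387 in AP1. In ET2 55.6% of genes had an interval above 1, and Hbb-bs took 430068 and 501108 CPM of the libraries labelled DKO and WT.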

How the results depend on the processing

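No paired analysis was possible because each group is 1 library, and no library could be left out. Of 195 alternative ratios of single members, 25 lay on the other side of 1 from the value reported, mostly where its own interval includes 1, and of 30 of the summed members 6 did. Where the interval reported was clear of 1, 4 single ratios and 1 sum crossed it. For hepatocytes labelled DKO over WT the sum moved from 0.981 to 1.02 with every cell weighted alike, 1.02 without mitochondrial UMIs, 1.04 without these and ribosomal-overlap or nuclear transcripts, 1.06 in cells of at least 500 genes and under 10% mitochondrial UMIs, 1.04 with equal weight per subtype and 0.944 without Hspa8 and Hsp90aa1. For hepatocytes with ApoE over those without it moved from 1.12 to 1.05 without Hspa8 and Hsp90aa1, and equal weight per subtype was not run because the subtypes are named differently. For smooth muscle it moved from 0.935 to 0.988 without mitochondrial and ribosomal-overlap or nuclear transcripts, 0.981 over all cells, 0.882 without Hspa8 and Hsp90aa1, and turned to 1.03 with equal weight per subtype, which gives the 72 VS3 cells labelled WT the weight of VS1. The same weighting turned Hspa1b to 1.33 and Dnaja1 to 1.04 in smooth muscle and Dnaja1 to 1.002 in hepatocytes, and the stricter cells turned the last to 1.01. Leaving out the 10 cells with most UMIs of a gene takes a larger share from the smaller group, so it is not read for the 261 hepatocytes labelled WT. The cause of the other shifts was not tested. The ratio of Hspa1a, 0.574 in smooth muscle, stayed between 0.552 and 0.779 under every alternative run, the upper end being that over all cells of the aortas.

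With a minimum of 20 or 500 UMIs instead of 100, more or fewer genes enter, in that order, and the counts past 1.5-fold move with them. Higher genes numbered 551 and 47 in place of 189 in hepatocytes labelled DKO over WT, 1647 and 470 in place of 1021 for hepatocytes with ApoE over those without, and 811 and 20 in place of 137 in smooth muscle. Lower genes numbered 640 and 96 in place of 223, 2463 and 305 in place of 1157, and 1263 and 25 in place of 259. Depth limits Hspa1b in the livers, with at most 24 UMIs, and each member of the 261 hepatocytes labelled WT.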

Other observations

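Apoe itself, which hepatocytes are known to hold in abundance and secrete, was low in all 3 livers, and stood at 68.8 CPM in hepatocytes labelled WT, 36.3 CPM in those labelled WT with ApoE and 32.7 CPM in those labelled DKO with ApoE. In the aortas it stood at 5.64 CPM in the library labelled WT and 4.66 CPM in the library labelled DKO. Epn2 in the aortas stood at 103 CPM under the DKO label and 73.6 CPM under the WT label.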
